A study of Rattus norvegicus with 13 samples.

Results

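The collagen genes were described here in the thyroid of young male Wistar rats whose mothers had received potassium iodide (KI) or saline during pregnancy. Collagen genes were taken as all genes whose name on the array has the form of Col, a chain type number, the letter a and a chain number, which gave 39 genes with 54 probes among the 36174 gene names and 45598 gene probes of the array. The rule used names alone and no measured value.

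Collagens are the structural proteins of the extracellular matrix, made of 3 chains that wind around each other in a triple helix built on a repeat of glycine and a pair of other residues. The fibril-forming types I, III and V build the connective tissue capsule and septa of the thyroid, whereas type IV forms the sheet-like network of the basement membrane on which each follicle and each capillary rests. Other families bind to fibrils, anchor cells to them, or span the cell membrane.

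The KI-treated group consisted of 6 animals whose mothers were given KI at 1 mg/kg/day by oral gavage for 8 days, starting on gestational day 9. The control group consisted of 7 animals whose mothers were given saline. KI or saline was given to the mothers, and the thyroid of the offspring was collected 30 days after weaning. Total RNA of each thyroid was hybridised to 1 one-colour Agilent oligonucleotide array. Litters were not given in the sources used here, so that animals of the same mother may be counted separately, and the p-values measure only the spread between these animals.

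A level is the log2 signal of a probe minus the 75th percentile of all gene probes on the same array, so that 0 is the 75th percentile and 1 unit is a 2-fold change in signal. Levels were compared between animals for the same probe and not between probes, since probes differ in brightness. A gene with more than 1 probe was represented by its brightest probe. Between 34840 and 41050 of the 58717 gene spots of an array were well above background and 0 were saturated. The follicular cell markers Tg, Slc5a5, Tshr, Pax8, Nkx2-1 and Foxe1 were above background on all 13 arrays, whereas Slc26a4 was above background on 0. Control 4 and control 6 stood apart from the other animals, with the lowest 75th percentiles of the raw signal. These were 8.18 and 7.92 on the log2 scale, against 8.48 to 9.10 in the others. Values without both animals are given beside collagen results that they moved.

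A collagen is easily recognised by its sequence, and 2 of the 54 probes lie in a part that encodes the triple helix, with glycine codons (GGN, in capitals) recurring at an interval of 3 codons. They are shown as examples of the repeat that all members share. The probe of Col11a2 was above background on 0 arrays and that of Col23a1 on 2. The probe of Col11a2, a chain of the fibril-forming type XI, matches separate stretches within chr20:4936632-4936946 on the minus strand, and that of Col23a1, a membrane-spanning collagen, matches separate stretches within chr10:37064934-37067076 on the plus strand (rat build rn4, as annotated on the array).
Col11a2: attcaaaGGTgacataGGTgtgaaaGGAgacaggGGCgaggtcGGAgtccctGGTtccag
Col23a1: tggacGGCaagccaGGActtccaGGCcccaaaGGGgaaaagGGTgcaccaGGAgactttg
The hexamer AATAAA, which commonly precedes the polyadenylation site, was found in 11 of the 54 probes (20.4%), against 9.04% of all gene probes on the array. One example is the brightest probe of Col27a1 (chr5:80317967-80318026, plus strand), the gene with the smallest p-value below, whose last 30 bases are shown with the hexamer in capitals.
Col27a1: gactttaAATAAAtatttaaaactgagcaa

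Of the 39 collagen genes, 32 were well above background on at least 6 arrays and were tested, and 25 were so on all 13 arrays. The 7 genes that were not tested were Col24a1, Col10a1 and Col26a1, which were above background on 0 arrays, Col6a4 and Col19a1 on 1 array, Col22a1 on 2 arrays and Col8a2 on 5 arrays. Col10a1 is a product of hypertrophic cartilage. All 6 basement membrane collagens passed this filter, as did 10 of the 11 fibrillar collagens and 16 of the 22 others.

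KI-treated animals were compared with controls to find out whether exposure before birth left a difference in collagen transcripts. No collagen gene differed between the groups after adjustment over all probes (0 of 32; limma, Benjamini-Hochberg adjusted p below 0.05), and 0 of 25713 probes on the array did (0%). The smallest adjusted p of a collagen was 0.353. At an unadjusted limma p below 0.05, 3 of the 32 collagens (9.38%) were found, against 3271 of all probes tested (12.7%). One was higher in the KI-treated group, where the share of all probes was 5.71%, and 2 were lower, where it was 7.01%. The groups overlapped in all 32 collagens, whereas they did not overlap in 151 of all probes (0.587%).

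The fibril-forming collagens were all lower on average in the KI-treated group, by a small amount that was not significant for any of them after adjustment. All 10 that were tested had a difference below 0, ranging from -0.44 to -0.08 with a median of -0.20. This has to be read beside all probes, of which 60.7% had a difference below 0, with a median of -0.08. The basement membrane collagens were split evenly, with 3 higher and 3 lower and a median of -0.03. Of the other collagens, 7 were higher and 9 lower, with a median of -0.09. Over the 32 genes together, 10 were higher and 22 lower, with a median of -0.12. The RNA came from whole thyroid, so that fewer cells of a type and less RNA per cell cannot be told apart.

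**Figure D1:**
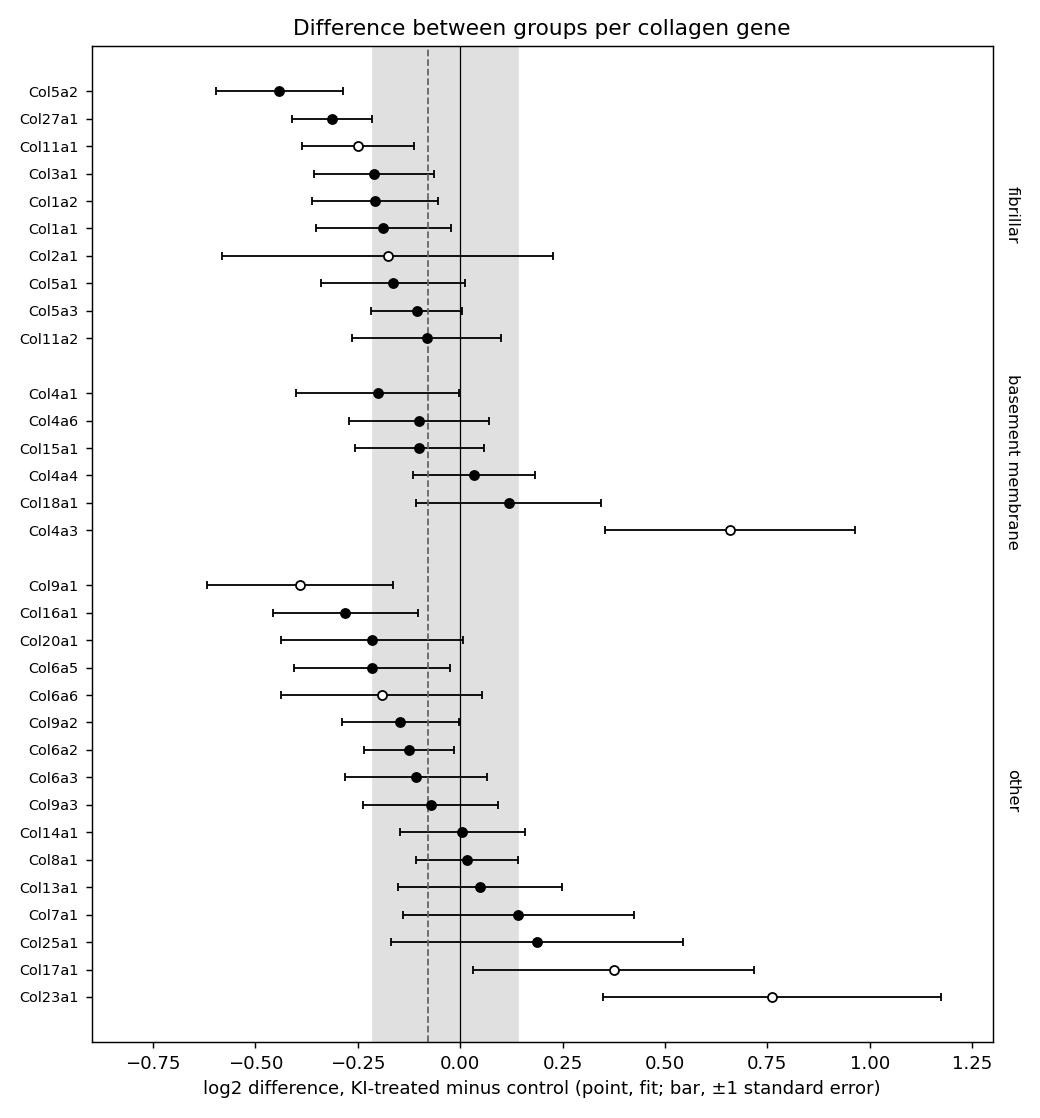
Mean of the KI-treated animals minus that of the controls (log2, horizontal axis) for each of the 32 collagen genes tested, with its standard error from limma, grouped by class. Filled points were above background on all 13 arrays, and the dashed line and grey band give the median and quartiles of all probes. All 10 fibrillar collagens lie below 0, from -0.44 to -0.08, whereas the basement membrane and other collagens lie on both sides of 0.

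The direction in the fibrillar collagens depended in part on control 4 and control 6. Without these 2 animals, 8 of the 10 were lower and 2 higher, with a median of -0.10 beside -0.01 over all probes. Both animals were scanned in the first of 3 scan sessions, together with KI-treated animals 2 and 3. Within that session 9 of the 10 fibrillar collagens were lower, with a median of -0.55 beside -0.15 over all probes. In the second session (3 KI-treated, 2 control) 6 of 10 were lower, with a median of -0.14 beside -0.01 over all probes. In the last session (1 KI-treated, 3 control) 7 of 10 were lower, with a median of -0.12 beside -0.04.

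Col5a2 encodes a chain of type V collagen, which sets the diameter of type I fibrils. Its level was 1.22, 1.56, 1.82, 1.29, 1.37 and 1.51 in KI-treated animals 1 to 6, and 1.70, 1.71, 1.93, 2.57, 1.65, 1.84 and 1.95 in control animals 1 to 7. In all, 5 of the 6 KI-treated animals were below every control, KI-treated animal 3 lay among the controls, and control 4 was far above the rest. The difference was -0.44 ± 0.16 (SE; exact two-sided permutation p = 0.00699; limma adjusted p = 0.354). It was -0.51, -0.34 and -0.55 within the 3 scan sessions, and -0.32 ± 0.12 without control 4 and control 6. A second probe of Col5a2 begins 42 bases downstream in the transcript and shares the 18 bases acaactttggtcatgtat with the first. Its difference was smaller, at -0.18 ± 0.14 (exact permutation p = 0.231), and it was -0.04 without both arrays.

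Col27a1 encodes a minor fibrillar chain that is best known from cartilage. Its level ranged from -1.63 to -1.44, with a median of -1.56, in the KI-treated group, and from -1.44 to -1.01, with a median of -1.27, in controls. By animal the levels were -1.57, -1.51, -1.61, -1.54, -1.63 and -1.44 in the KI-treated group, and -1.32, -1.44, -1.33, -1.01, -1.18, -1.14 and -1.27 in controls. The groups met only at KI-treated animal 6 and control 2, and the other 5 KI-treated animals were below every control. The difference was -0.31 ± 0.10 (SE; exact two-sided permutation p = 0.00175; limma adjusted p = 0.353), with -0.49, -0.17 and -0.29 within the scan sessions and -0.25 ± 0.08 without control 4 and control 6. Col27a1 also varied least between animals of all collagens tested, with a pooled SD of 0.12 beside a median of 0.32 over the collagens. Its second probe begins at base 5488 of the transcript in place of base 7229 and was above background on 7 arrays. It differed by 0.15 ± 0.21 in the opposite direction (exact permutation p = 0.512), and by -0.0060 ± 0.20 without control 4 and control 6. With both probes averaged the difference of Col27a1 was -0.08, with an unadjusted limma p of 0.531.

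The major fibrillar collagens differed less than they varied. Col1a1 and Col1a2 encode the alpha 1 and alpha 2 chains of type I collagen, the main fibril of connective tissue. Col1a1 was 5.69, 4.77, 5.35, 5.43, 5.49 and 5.54 in the KI-treated animals and 5.45, 5.39, 5.50, 5.97, 5.33, 5.97 and 5.33 in the controls. KI-treated animal 2 was the lowest and control 4 and control 6 were the highest, with the other 10 animals between 5.33 and 5.69. The difference was -0.19 ± 0.17 (exact permutation p = 0.282) and -0.02 ± 0.14 without control 4 and control 6. Within the scan sessions it was -0.91, 0.15 and 0.04, so that it lay in the session that held both of these controls and KI-treated animal 2. Col1a2 was 6.51, 5.94, 6.12, 6.32, 6.42 and 6.43 in the KI-treated animals and 6.50, 6.31, 6.40, 7.14, 6.39, 6.57 and 6.18 in the controls. Control 4 was again the highest and KI-treated animal 2 the lowest, and the difference was -0.21 ± 0.15 (exact permutation p = 0.202), and -0.06 ± 0.11 without control 4 and control 6.

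Col3a1, the single chain of type III collagen, which lies in the same fibrils as type I, ranged from 4.78 to 5.24 in the KI-treated group and from 4.92 to 5.73 in controls. The difference was -0.21 ± 0.15 (exact permutation p = 0.167), and the unadjusted limma p of 0.172 became 0.0234 with scan session as a block and 0.0293 with slide as a block. Without control 4 and control 6 it was -0.12 ± 0.13. The type V chain Col5a1 differed by -0.16 ± 0.18, with control 4 the highest at 3.25 and the other controls between 2.04 and 2.62, and by 0.02 ± 0.12 without control 4 and control 6. The third type V chain, Col5a3, differed by -0.11 ± 0.11.

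The other collagens best known from cartilage are those of types II, IX and XI. None of them had an unadjusted limma p below 0.05 in the main fit, which had no block. Among alternatives without a block, Col2a1 and Col9a1 were below 0.05 with normexp background correction. So were Col9a1 without KI-treated animal 2 and Col11a1 without control 5. Col11a1 was above background on 9 arrays and Col9a1 on 7. Col2a1, the chain of the main cartilage fibril, was above background on 8 arrays. It ranged from -4.53 to -3.63 in the KI-treated group and from -5.61 to -2.07 in controls, where control 1 was the highest and control 6 the lowest. The difference was -0.18 ± 0.40 (exact permutation p = 0.694) with the second largest pooled SD among the collagens (0.82), and it was -0.57 ± 0.34 without control 4 and control 6. Col11a1 and Col11a2, chains of type XI that join type II in the cartilage fibril, differed by -0.25 ± 0.14 (exact permutation p = 0.0787) and -0.08 ± 0.18 (0.664, by the same test). The unadjusted limma p of Col11a1 was 0.00821 with scan session as a block and 0.0195 with slide as a block, and the difference of Col11a2 was 0.0071 ± 0.19 without control 4 and control 6. Col9a1, Col9a2 and Col9a3, chains of type IX on the surface of that fibril, differed by -0.39 ± 0.23, -0.15 ± 0.14 and -0.07 ± 0.16, the last of which was 0.04 ± 0.15 without control 4 and control 6, and the first of these was the lowest difference among the collagens outside the fibrillar class. Of the 8 other cartilage markers on the array, Acan and Matn3 were above background on 0 arrays. Another 4 were tested, 2 of them above background on all 13 arrays. All 4 were lower in the KI-treated group, with a median of -0.18 and none at an unadjusted limma p below 0.05. The summed level of the 8 markers ranged from -1.22 to -0.21 in the KI-treated group and from -0.97 to 0.10 in controls. A summed level, here and below, is the log2 of the sum of the signals of a list before the log. The brightest probes of the list thus weigh most in it. The share of cartilage near the gland in these values was not tested.

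**Figure D2:**
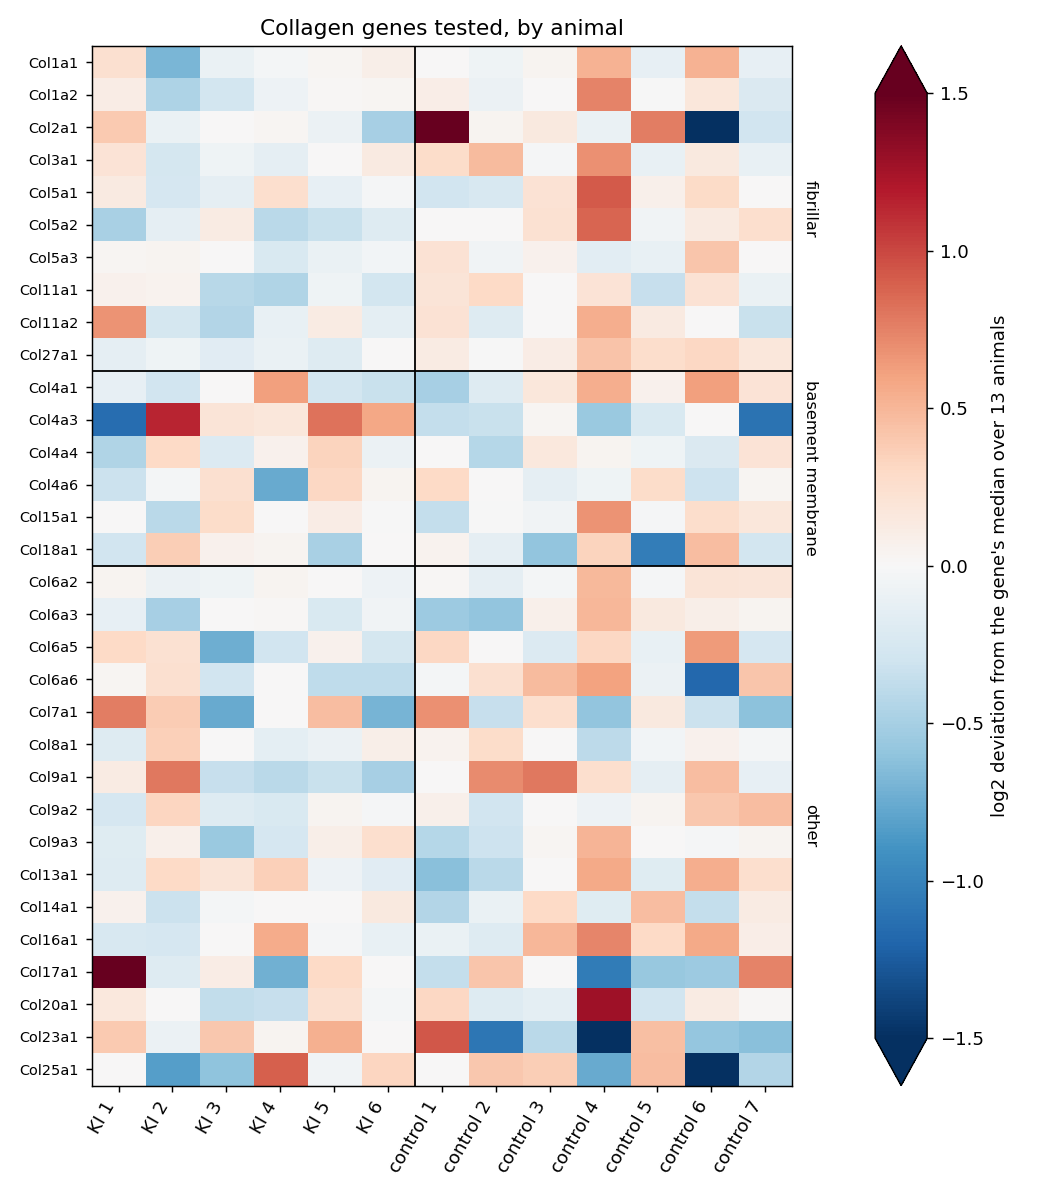
Level of each of the 32 collagens tested in each animal, minus the median of that gene over the 13 animals (log2, colour scale, red for higher and blue for lower), with the genes in rows by class and the animals in columns. Most fibrillar collagens were high in control 4, and none of the 6 basement membrane collagens was above its median in KI-treated animal 1 or in control 2.

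Col4a3 was the only collagen with an unadjusted limma p below 0.05 that was higher in the KI-treated group. It encodes the alpha 3 chain of type IV collagen, which assembles with the alpha 4 and alpha 5 chains in certain specialised basement membranes, such as that of the kidney glomerulus. Its level was -4.003, -1.72, -2.67, -2.69, -2.04 and -2.28 in KI-treated animals 1 to 6, and -3.22, -3.19, -2.83, -3.42, -3.09, -2.86 and -3.97 in controls 1 to 7. In all, 5 of the 6 KI-treated animals were above every control, whereas KI-treated animal 1 was the lowest of all 13. The difference was 0.66 ± 0.31 (SE; limma p = 0.0485, adjusted p = 0.391), and the exact two-sided permutation test gave p = 0.0804. It was 0.95, 0.43 and 0.60 within the scan sessions, and 0.69 ± 0.36 without control 4 and control 6, with an unadjusted limma p of 0.0763. The probe was above background on 11 arrays.

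The level of Col4a3 could be set beside a probe annotated as a similar gene (LOC100911572, described as a collagen alpha-3(IV) chain-like gene), at chr9:82039663-82039722, close to the Col4a3 probe at chr9:82036908-82036967. It was -0.02, 1.20, 0.38, 0.25, 0.93 and 0.30 in the KI-treated animals and lay between 0.52 and 0.63 in all 7 controls. KI-treated animals 2 and 5 were again the highest and KI-treated animal 1 the lowest, as in Col4a3. The means of the groups did not differ beyond this spread (-0.08 ± 0.17, exact permutation p = 0.686), while the SD was 0.46 in the KI-treated group and 0.05 in controls. The difference in spread was noticed in these values and was not tested. Col4a4, the partner chain of Col4a3, showed the same animals at its extremes, with KI-treated animal 1 at -2.12 and KI-treated animals 2 and 5 at -1.38 and -1.34, and a difference of 0.03 ± 0.15 (exact permutation p = 0.811). Both probes of LOC102557498, described as a collagen alpha-4(IV) chain-like gene, shared this only in part. On 1 probe KI-treated animals 5 and 2 were the highest, at -0.79 and -0.84, and control 4 was the lowest at -1.90. On the other, control 4 was the highest at 3.46, followed by KI-treated animals 2 and 5 at 3.14 and 3.11. KI-treated animal 4 was the lowest on it at 2.18, with KI-treated animal 1 at 2.56.

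The genes of these paired chains lie head to head in the genome and share the DNA between their starts, which is why this DNA is shown. In the RefSeq annotation of build GRCr8 the starts of Col4a1 and Col4a2 are 76 bases apart, those of Col4a3 and Col4a4 412 bases and those of Col4a5 and Col4a6 1414 bases. The interval between Col4a1 and Col4a2 is given whole (chr16:84885521-84885596) and reads as follows on the plus strand, with the capitals marking GGGCGG, the core of the GC box bound by Sp1, here on the minus strand as CCGCCC.
Col4a1 and Col4a2: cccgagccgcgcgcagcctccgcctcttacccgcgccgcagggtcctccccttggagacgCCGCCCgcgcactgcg
The 250 bases before the start of Col4a3 (chr9:91323740-91323989, plus strand) hold the same motif once, in capitals.
Col4a3: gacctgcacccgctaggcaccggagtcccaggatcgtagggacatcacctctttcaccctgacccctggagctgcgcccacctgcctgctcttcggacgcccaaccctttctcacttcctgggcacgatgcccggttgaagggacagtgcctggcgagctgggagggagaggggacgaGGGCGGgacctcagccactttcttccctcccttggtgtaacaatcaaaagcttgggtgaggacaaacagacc
RefSeq promoters were given for 31 of the collagen genes. On either strand, GGGCGG was found in 17 of the 31 (54.8%) and in 32.4% of all 27457 promoters of the same length. CCAAT was found in 9 of them, against 34.3% of all promoters, and TATAAA in 4, against 13.1%. These are matches of letters and not sites shown to be bound.

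The main network chains of the basement membrane showed no difference beyond the spread between animals. Col4a1 encodes the alpha 1 chain found in nearly all basement membranes, and it ranged from 3.87 to 4.82 in the KI-treated group and from 3.71 to 4.83 in controls. KI-treated animal 4 was high in its group, and the difference was -0.20 ± 0.20 (exact permutation p = 0.349), with -0.73, 0.10 and 0.46 within the scan sessions and -0.02 ± 0.19 without control 4 and control 6. Its partner Col4a2 is named on the array by a transcript number and by its description only. It ranged from 0.23 to 0.91 in the KI-treated group and from -0.41 to 0.90 in controls, with control 4 the lowest, and differed by 0.17 ± 0.20 (exact permutation p = 0.450), which turned to -0.07 ± 0.14 without control 4 and control 6. Col4a5 and Col4a6, neighbours on the X chromosome, differed by 0.10 ± 0.16 and -0.10 ± 0.17, and by -0.0028 ± 0.16 and -0.18 ± 0.18 without these 2 animals. Col15a1 and Col18a1 encode the proteoglycan collagens on the outer face of basement membranes, and Col18a1 is the source of endostatin. They differed by -0.10 ± 0.16 (exact permutation p = 0.552) and 0.12 ± 0.23 (exact permutation p = 0.636), and without these 2 animals by 0.05 ± 0.13 and 0.34 ± 0.20.

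Type VI collagen forms beaded filaments between fibrils and cells. All 4 tested chains named by the rule were lower in the KI-treated group, with a median of -0.16 and none with an unadjusted limma p below 0.05, and without control 4 and control 6 there were 3 lower and 1 higher. Col6a2 ranged from 3.80 to 3.93 in the KI-treated group and from 3.76 to 4.38 in controls, with control 4 the highest, and differed by -0.13 ± 0.11 (exact permutation p = 0.177), and by -0.03 ± 0.08 without control 4 and control 6. Col6a1, named by its description only, differed by -0.09 ± 0.11, and by -0.0038 ± 0.08 without them. Col6a3, the longest chain, differed by -0.11 ± 0.17 with its brightest probe, and the additional chains Col6a5 and Col6a6 by -0.21 ± 0.19 and -0.19 ± 0.24. Without control 4 and control 6 these 3 chains differed by 0.03 ± 0.16, -0.07 ± 0.18 and -0.33 ± 0.15, the last with an unadjusted limma p of 0.0474.

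The second probe of Col6a3 gave the opposite direction. This probe begins at base 10118 of the transcript, upstream of the brightest at base 10848. It was -0.16, -0.39, 0.02, -0.13, -0.37 and -0.22 in the KI-treated animals and -0.59, -0.59, -0.49, -1.003, -0.26, -1.55 and -0.52 in the controls. Control 6 and control 4 were the lowest, and 1 control lay within the range of the KI-treated group. The difference was 0.50 ± 0.18 (exact permutation p = 0.00758; limma adjusted p = 0.357), and 0.28 ± 0.10 without control 4 and control 6. A further probe, named for Col6a3 by its description only (chr9:90009145-90009204, minus strand), lies upstream of both in the gene and had the direction of the brightest, with a difference of -0.41 ± 0.27 (exact permutation p = 0.213) and -0.12 ± 0.20 without both animals. It was highest in control 4, at -1.57, where the other 12 animals lay between -3.74 and -2.64.

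Over all 13 animals the direction for Col27a1 and Col6a3 thus depended on which probe was read. So did that of Col5a1, whose second probe differed by 0.04 ± 0.14, and by -0.07 ± 0.13 without control 4 and control 6. A probe of Col9a3 named by its description only differed by 0.22 ± 0.17, where its brightest probe differed by -0.07. Without control 4 and control 6 these were 0.09 and 0.04. Without both animals the brightest and second probes had the same sign for Col27a1 (-0.25 and -0.0060) and Col6a3 (0.03 and 0.28). The dependence on the probe was traced by animal. For 1712 transcripts with 2 probes at least 500 bases apart, the level of the downstream probe minus that of the upstream probe was taken in each animal relative to its own median over animals, a measure chosen after the values had been seen. The median over these transcripts was 0.55 in control 4, 0.35 in control 6 and 0.12 in control 7, and lay between -0.10 and 0.00 in the other 10 animals. After quantile normalisation it was 0.40 in control 4 and 0.19 in control 6. Of the collagens named by the rule, 4 had a pair of tested probes this far apart, and their values were above 0 in both animals. The value was 1.11 in control 4 and 1.25 in control 6 for Col6a3, 1.13 and 0.56 for Col5a1, 0.60 and 1.22 for Col27a1, and 0.41 and 0.01 for Col1a1. The further probe of Col6a3, which was high in control 4, is not among these pairs and goes the other way. In Col5a2, whose probes lie 42 bases apart, it was -0.16 and 0.21, and in Col6a2 it was -0.03 and -0.15. The part of this in the lower fibrillar collagens of the KI-treated group was not tested beyond leaving both animals out.

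**Figure D3:**
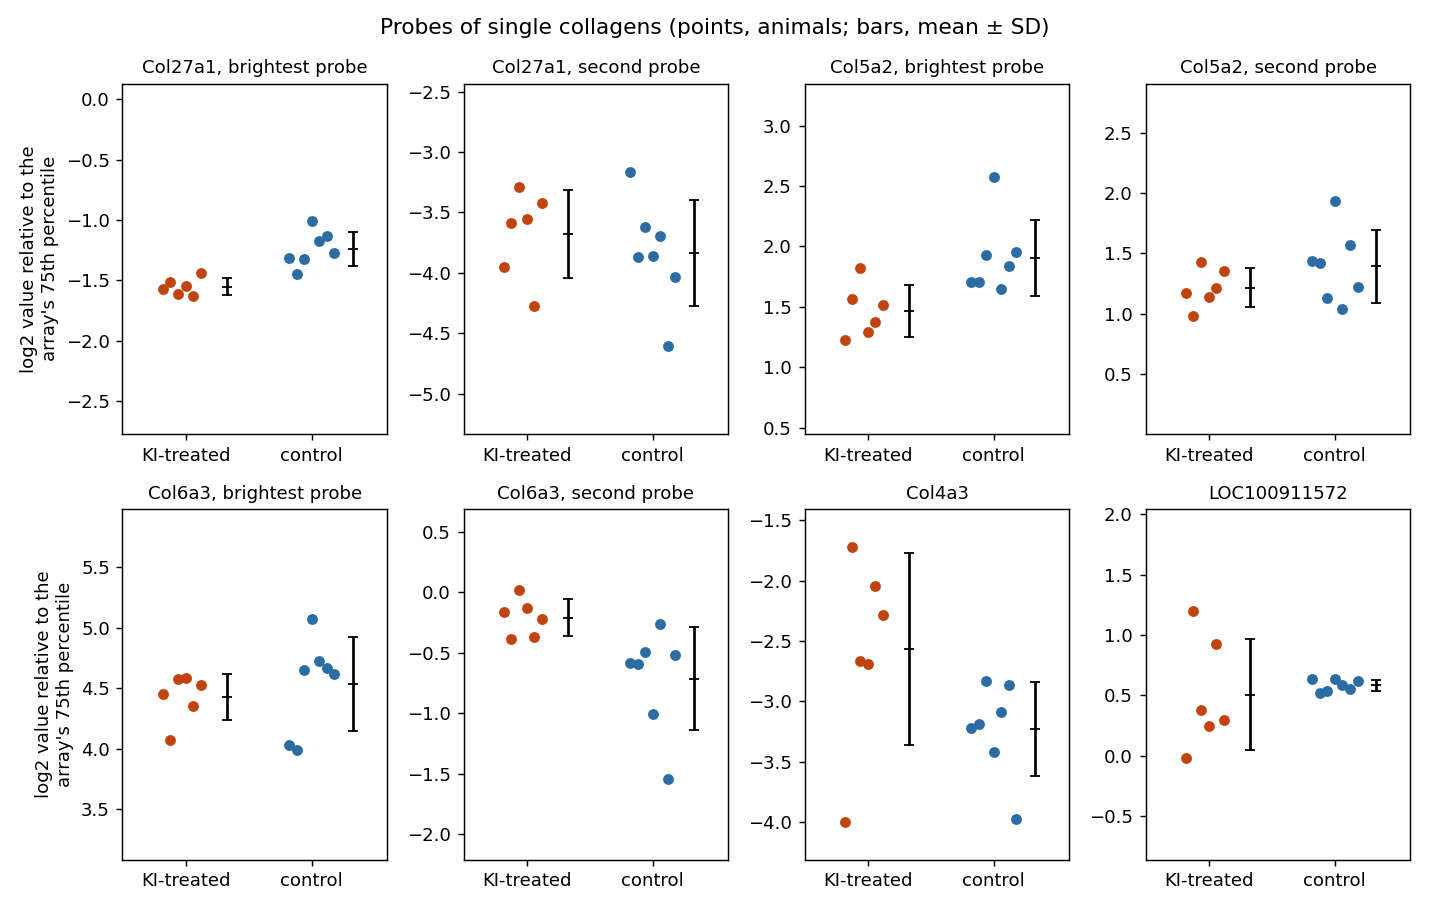
Levels as defined above (log2, vertical axis) of both probes of Col27a1, Col5a2 and Col6a3, of the Col4a3 probe and of LOC100911572, with 1 point per animal and the mean and SD of each group beside the points. Over all 13 animals the brightest and the second probe differ in direction for Col27a1 (-0.31 and 0.15) and Col6a3 (-0.11 and 0.50). The 7 controls of LOC100911572 lie between 0.52 and 0.63.

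The membrane-spanning collagens, which are made by epithelial and nerve cells among others, were all higher in the KI-treated group, with no member at an unadjusted limma p below 0.05. The 4 differences had a median of 0.28. With its brightest probe, Col23a1 had the largest difference and the largest spread of all collagens. It ranged from -3.72 to -3.09 with a median of -3.41 in the KI-treated group and from -6.13 to -2.70 with a median of -4.22 in controls. Control 4 was the lowest and control 1 the highest, so that all KI-treated animals lay within the range of the controls. It was above background on all 6 KI-treated arrays and on 3 of the 7 control arrays, so that it passed the filter mainly through the group in which it was higher. The difference was 0.76 ± 0.41 (exact permutation p = 0.125) and 0.36 ± 0.32 without control 4 and control 6. Its other probes were above background on 2 and 1 control arrays and on 0 KI-treated arrays, and were not tested. They had the opposite direction, with means of -5.88 and -5.39 in the KI-treated group against -4.39 and -5.18 in controls. Col17a1, a component of the hemidesmosome, was -1.69 in KI-treated animal 1 and between -4.31 and -2.51 in the other 12, and differed by 0.37 ± 0.34 (exact permutation p = 0.360), and by 0.13 ± 0.36 without control 4 and control 6. Col25a1 differed by 0.19 ± 0.36 and Col13a1 by 0.05 ± 0.20, which became -0.20 ± 0.29 and 0.26 ± 0.17 without control 4 and control 6.

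Of the 6 fibril-associated collagens with interrupted helices that were tested, 5 were lower and 1 higher, with a median of -0.18. These are the 3 type IX chains given above, and Col14a1, Col16a1 and Col20a1, which bind to the surface of fibrils and differed by 0.0055 ± 0.15, -0.28 ± 0.18 and -0.22 ± 0.22. Without control 4 and control 6 these were -0.09 ± 0.15, -0.13 ± 0.17 and 0.00048 ± 0.14, and control 4 was the highest control of Col20a1 at -0.13. Within the second scan session 5 of these 6 were higher. Another probe of Col20a1, named by its description only, was above background on all 13 arrays. It differed by -0.31 ± 0.13 (exact permutation p = 0.0274; limma adjusted p = 0.370), and by -0.27 ± 0.13 without control 4 and control 6. The remaining genes were Col7a1, which forms the anchoring fibrils under epithelia, with a difference of 0.14 ± 0.28, and Col8a1, a short-chain collagen of vessel walls, with 0.02 ± 0.12, which became 0.0022 ± 0.32 and -0.05 ± 0.11 without control 4 and control 6.

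The class levels of single animals were then compared, taking the median over a class of each gene minus its own median over the 13 animals. For the fibrillar collagens this was 0.53 in control 4 and 0.20 in control 6, and between -0.19 and 0.16 in the other 11 animals. Over all probes tested the same median was 0.20 in control 4 and 0.06 in control 6, and between -0.04 and 0 in the other animals. After quantile normalisation the fibrillar value was 0.28 in control 4 and 0.02 in control 6. The mean of the KI-treated animals was -0.07 ± 0.11 (SD, n = 6) and that of the controls 0.11 ± 0.22 (SD, n = 7), which differ by about the pooled SD of 0.17. For the basement membrane collagens KI-treated animal 1 was the lowest at -0.30 and KI-treated animal 5 the highest at 0.21. KI-treated animal 1 also had the highest summed level of lymphocyte markers, at 3.38, where the other KI-treated animals were at or below -0.70 and the controls at or below 1.20. Of the 8 lymphocyte markers, 3 were above background on enough arrays to be tested. A part of these cells in its collagen values was not tested. Summed fibroblast markers, all 8 of them tested, ranged from 6.12 to 6.90 in the KI-treated group and from 6.12 to 6.86 in controls. Summed endothelial markers were highest in control 4 and control 6, at 7.32 and 7.31, where the other animals lay between 6.43 and 6.90. This was not particular to endothelium. Summed follicular cell markers, a sum again weighted to the brightest probes, were also highest in these animals, at 10.86 and 10.85. The others lay between 10.20 and 10.55. Control 6 was the highest for peripheral nerve markers and for parathyroid and C cell markers as well. Skeletal muscle markers were lower in the KI-treated group for all 6 tested, with a median of -1.13, and adipocyte markers for 6 of 8, with a median of -0.26. The part of these cell types in the collagen values was not tested.

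**Figure D4:**
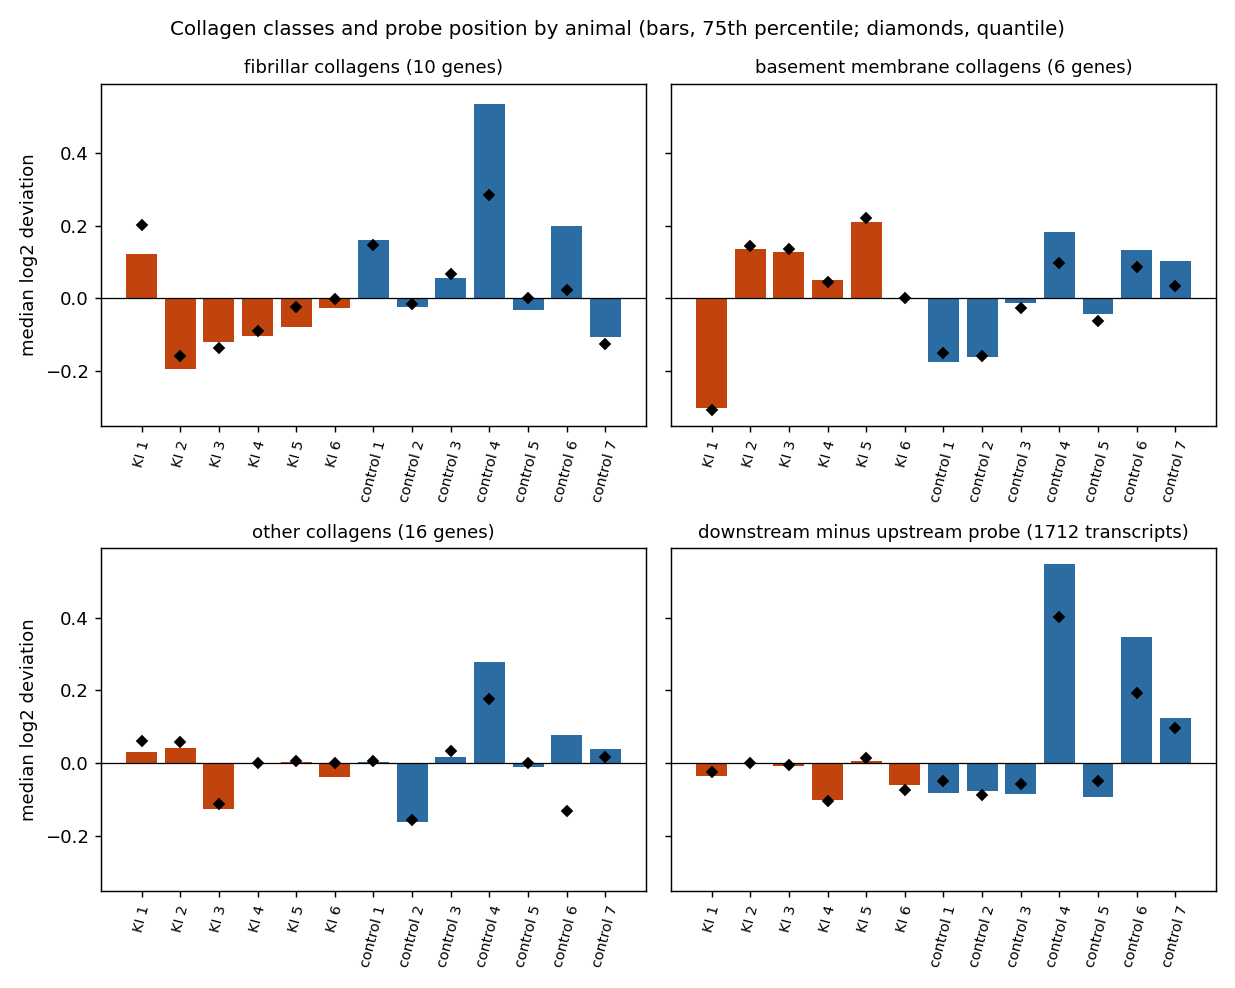
For each animal, the median over a collagen class of the level of each gene minus its own median over the 13 animals (log2, vertical axis; bars for scaling to the 75th percentile, diamonds for quantile normalisation), and in the last panel the median difference of downstream and upstream probes over 1712 transcripts. Control 4 is the highest for fibrillar collagens at 0.53 and for the probe difference at 0.55, and KI-treated animal 1 is the lowest for basement membrane collagens at -0.30.

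Chains that make up the same protein need each other, and it was examined whether their transcripts varied together over the 13 animals after each group mean had been subtracted. Of 20 listed pairs 18 could be tested, by permutation within groups with Benjamini-Hochberg adjustment over the 18. Col6a1 and Col6a2 varied together, with r = 0.97 and rho = 0.96 (permutation p = 2e-05, adjusted 0.00027). So did Col1a1 and Col1a2, with r = 0.84 and rho = 0.90 (permutation p = 3e-05, adjusted 0.00027). Without the 2 animals farthest from the median of the first gene, r was 0.91 for both pairs. With scan session means removed r was 0.97 for type VI and 0.82 for type I, and without control 4 and control 6 it was 0.92 and 0.88. After quantile normalisation it was 0.90 and 0.81.

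The other 16 pairs did not pass in this test. Col1a1 and Col3a1, which share fibrils, had r = 0.62 and rho = 0.62 (adjusted permutation p = 0.103). Col6a1 and Col6a3 had r = 0.72 and rho = 0.57 with the same adjusted permutation p of 0.103, and r fell to 0.31 without the 2 farthest animals, so that the relation rests on them. Col4a1 and Col4a2, which share both a protein and a promoter region, had r = -0.39 and rho = -0.31 (adjusted permutation p = 0.371), and r = 0.19 without control 4 and control 6. Col4a3 and Col4a4 had r = 0.50 and rho = 0.39 (adjusted permutation p = 0.302), which was -0.05 without KI-treated animals 1 and 2. It was 0.85 when slide means were subtracted, with an adjusted permutation p of 0.0058. The 13 arrays lay on only 6 slides, so that this subtraction ties the animals of a slide to each other. The permutation does not take such ties into account. This p, and those below after subtraction of scan session or slide means, can therefore be too small. Col1a1 and Col4a1, of the fibril and the basement membrane, had r = 0.46 and rho = 0.40 (adjusted permutation p = 0.302), with r = 0.32 without the 2 farthest animals and 0.08 without control 4 and control 6, but r = 0.86 with scan session means subtracted (adjusted permutation p = 0.00606) and 0.85 with slide means subtracted (adjusted permutation p = 0.00216). Col3a1 and Col5a2, whose probes lie 56.7 kb apart on chromosome 9 in build rn4, had r = 0.33 and rho = -0.01 (adjusted permutation p = 0.504).

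**Figure D5:**
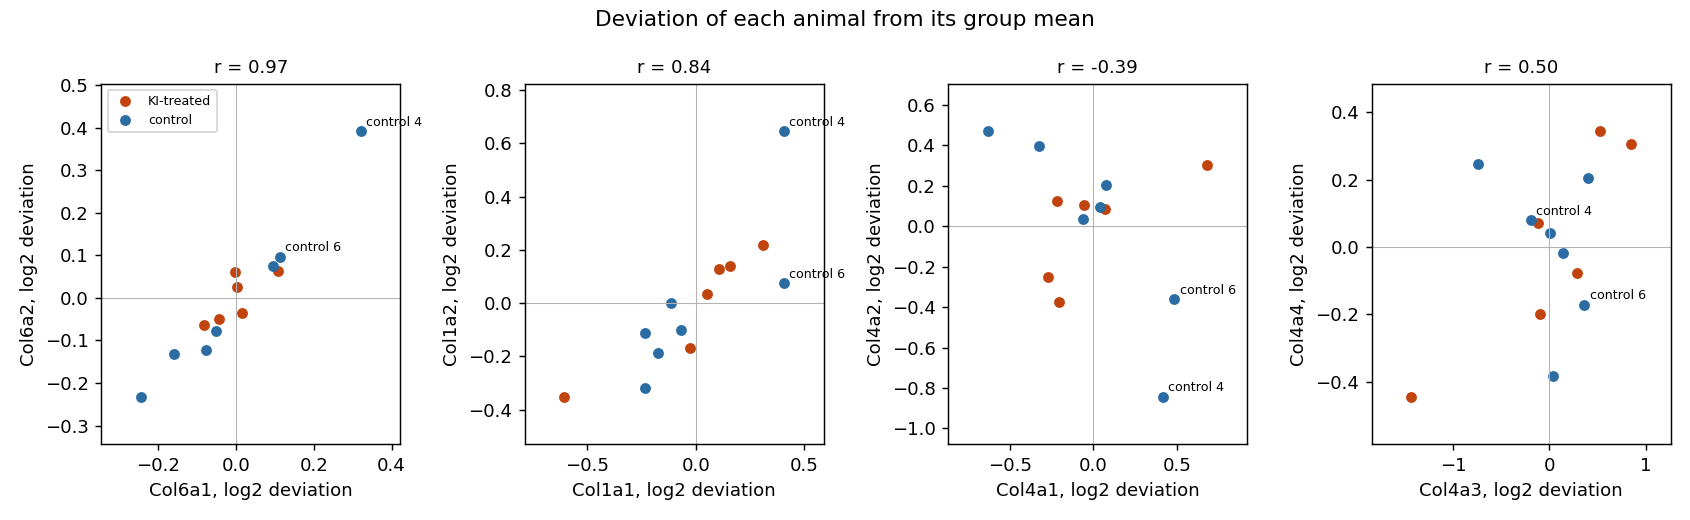
Levels of a pair of collagen chains in each animal after the mean of its group was subtracted (log2, both axes), with KI-treated and control animals in separate colours and control 4 and control 6 labelled. Points of Col6a1 and Col6a2 and of Col1a1 and Col1a2 follow a line (r = 0.97 and 0.84), whereas those of Col4a1 and Col4a2 (r = -0.39) and of Col4a3 and Col4a4 (r = 0.50) scatter.

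Genes whose products modify, cross-link, bind or degrade collagen were examined as a list of 77 genes, 76 of which had a probe and 64 of which were tested. They were divided evenly, with 32 higher after KI and 32 lower, and none passed adjustment. At an unadjusted limma p below 0.05 there were 8 (12.5%), near the 12.7% of all probes, and 3 without control 4 and control 6. The values of single partner genes below are from all 13 animals, and which 3 remained is not reported here. Of the 17 genes for chain modification and folding that were tested, 11 were higher and 6 lower. P4ha1, the catalytic subunit of prolyl 4-hydroxylase, differed by -0.36 ± 0.16 (exact permutation p = 0.0478; limma adjusted p = 0.387), and P3h2, a prolyl 3-hydroxylase that acts on type IV collagen, by 0.45 ± 0.19 (0.0437 and 0.376 by the same tests, permutation and limma). Mia3, which loads procollagen into transport vesicles, differed by 0.35 ± 0.14 (exact permutation p = 0.0233; limma adjusted p = 0.375). Control 6 and control 4 were the lowest animals for Mia3, at 0.09 and 0.24, and the highest for P4ha1, at 2.24 and 1.96. Serpinh1, the collagen chaperone, and Plod2, which hydroxylates lysine for cross-links, differed by -0.04 ± 0.12 and -0.16 ± 0.17.

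Of the 11 genes tested for propeptide cleavage and cross-linking, 5 were higher and 6 lower. The procollagen peptidase Adamts14 differed by -0.36 ± 0.14 (exact permutation p = 0.0181), the lysyl oxidase-like enzyme Loxl1 by 0.32 ± 0.14 (exact permutation p = 0.0414), and Lox by 0.25 ± 0.21 (exact permutation p = 0.303). Of the 15 basement membrane partners tested, 8 were higher and 7 lower. Lama4, a laminin chain of vessels that like Mia3 is named by its description only, differed by 0.54 ± 0.23 (exact permutation p = 0.0373). Control 4 was the lowest animal for Lama4 at -1.36, and control 6 was next at -0.65. Within the scan sessions its difference was 1.55, -0.10 and 0.35. Sparc, a collagen-binding matrix protein, differed by 0.09 ± 0.11. Among the 8 degradation genes tested, the membrane-bound collagenase Mmp14 differed by -0.26 ± 0.11 (exact permutation p = 0.0152). Of the 7 small proteoglycans and the 6 collagen receptors tested, 0 had an unadjusted limma p below 0.05.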

How the data were processed

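Thyroid RNA of 13 rats was measured on one-colour Agilent arrays. The deposited spot intensity files hold processed signals that the authors obtained with Agilent Feature Extraction (after subtraction of background, detrending and a surrogate for low signals), without normalisation between arrays. A second deposited table holds log2 values normalised between the same arrays by the authors, with the method not given in the sources used here, and served as an alternative. Control spots and outlier spots were left out and repeated spots averaged. Levels were log2 processed signals minus the 75th percentile of each array. The 25713 of 45598 probes that at least 6 arrays showed well above background were tested with limma 3.58.1 in R 4.3.3 with Benjamini-Hochberg adjustment and no covariate. An exact permutation test was added for single genes, over all 1716 splits of 13 animals, and pairs with 100000 permutations. The number of arrays limits the precision. In a test on simulated data with 25650 probes, 0.5%, 72.5% and 93.5% of 200 probes changed by 0.5, 1 and 2 on the log2 scale were recovered at an adjusted p below 0.05. Groups came from the sample titles. Genes were named from the array annotation (build rn4), with a fixed list of major chains, all members with a p below 0.05 by either test, the largest and smallest 3 differences and the 5 largest spreads. Other members are named where they complete a class or stood out, and were chosen after their values were seen. The members, gene lists and rules were chosen with earlier results of these data known. Alternatives covered background correction, scaling, filters, probe averaging, slide, scan session, replicate number, array weights, the methods' t-test and leaving out each animal. Leaving out both control 4 and control 6, and a percentile over all gene spots, were chosen after seeing the data. Promoter sequences were taken from RefSeq (GRCr8). Coordinates of rn4 were not mapped to exons or UTRs, since an annotation of that build was not used here. Single results of some listed genes are not reported here.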

Additional observations from a re-analysis of the deposited data

Results flagged for a closer look

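Of 70 checks of a collagen within 1 group, 7 had a highest or lowest animal set apart from the others of its group by more than Dixon's 95% limit (10%), where chance gives about 1 in 20. Control 4 accounted for 3 of them. It was high for Col1a2 at 7.14, where the next control was at 6.57, for Col5a2 at 2.57, next to 1.95, and for Col20a1 at -0.13, next to -1.09. Control 6 was low for Col6a6 at -4.90, next to -3.82. KI-treated animal 4 was high for Col4a1 at 4.82, next to 4.21, and for Col16a1, a fibril-associated collagen, at 1.69, next to 1.13. KI-treated animal 2 was low for Col1a1 at 4.77, next to 5.35.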

How the results depend on the processing

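In all 26 alternatives 0 collagens had an adjusted p below 0.05, although array weights gave 50 other probes and leaving out control 1 or control 2 gave 1 each. The 3 collagens at an unadjusted p below 0.05 became 5 with normexp background correction and 5 with slide as a block, and 2 to 4 when 1 animal was left out. The methods' t-test gave 2, and 0 after Benjamini-Hochberg adjustment. Col5a2 was below 0.05 in every alternative, from -0.51 to -0.31, and Col27a1 in every one except the average of all its probes, whereas Col4a3 was above 0.05 in most. The 8 partner genes became 3 without both control 4 and control 6, 4 with the replicate block, and 3 to 12 when 1 animal was left out. The median of the other collagens was -0.09, and 0.019 with the authors' log2 values. Subtracting slide means raised the pairs at an adjusted permutation p below 0.05 from 2 to 8. The permutation does not take into account that this subtraction ties the animals of a slide, so that 8 can be too many. Replicate numbers did not pair the animals (correlations of deviations from -0.11 to 0.07); with the number as a replicate block there were 2 collagens at an unadjusted p below 0.05 and 0 adjusted. Among all probes at an unadjusted p below 0.05, 1469 were higher and 1802 lower, which became 1790 and 1109 with the percentile over all gene spots, 1823 and 1432 with quantile normalisation, 1886 and 1359 with the authors' values and 1166 and 3426 with normexp. The median over all probes moved from -0.08 to -0.02 with quantile normalisation, under which all 10 fibrillar collagens were below 0. The causes of these changes were not tested.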

Other observations

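Besides the 54 probes named by the rule, 32 probes carry a collagen only in their description. Of these 20 were tested, and 6 had an unadjusted limma p below 0.05, all with a difference below 0, where the share of all probes was 12.7%, or 7.01% counting only those that were lower, and none passed adjustment. Without control 4 and control 6, LOC102556297 (-0.97) and a probe of LOC103695270 (-0.42) of these 6 had a p below 0.05. Of the 6 probes, 4 belong to genes described as like the alpha 1 chain of type I collagen, and another is the Col20a1 probe given above. LOC103693757 was between 7.53 and 7.90 in the KI-treated group and between 7.68 and 8.97 in controls, with control 4 and control 6 the highest at 8.97 and 8.64. Its difference was -0.46 ± 0.19 (exact permutation p = 0.0192; limma adjusted p = 0.374), and -0.21 ± 0.09 without both. The 2 probes of LOC103695270 differed by -0.47 ± 0.21 and -0.52 ± 0.16 (exact permutation p = 0.0536 and 0.0035). LOC102556297 differed by -1.56 ± 0.53, with control 4 at 0.88 and control 5 at -3.44, a wide spread among the controls. Whether these probes share sequence with Col1a1 was not tested, so that they cannot be assigned to 1 gene with certainty.

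Col19a1, a fibril-associated collagen of muscle and nerve tissue, was above background in 1 animal. Control 3 was at -1.10, where control 1 was at -4.58 and the other 11 animals lay between -7.07 and -5.74. The probe of Col9a1, which lies 10.9 kb from that of Col19a1 on chromosome 9 (rn4), was at -3.18 in control 3, the highest of the controls. Col9a1 was also at -3.18 in KI-treated animal 2 and at -3.27 in control 2, where Col19a1 was at -6.81 and -6.49. Col8a2, a chain of the corneal endothelial membrane, was at -1.99 in control 2 and between -5.43 and -3.66 in the other 12 animals. These single high values were chosen after they were seen.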
